A study of Homo sapiens with 12 samples.

Results

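EFNB2 and EFNA5, the genes for the ephrin ligands ephrin-B2 and ephrin-A5, were followed across 12 arrays of Hs695T, a human melanoma cell line, each gene through the 1 row that carries its symbol, 2 of the 29592 rows of the expression table. EFNB2 was chosen as raised by entinostat and EFNA5 as lowered by the MAPK inhibitors, from log2 values compared over all 4 groups. Entinostat alone against vehicle for EFNB2, and the MAPK inhibitors alone against vehicle for EFNA5, are taken as the contrasts of choice. Differences from vehicle are therefore described for both genes without a test, and only the combination is tested, against each drug treatment. The p-values of those tests are not independent of the choice. The cells were exposed for 24 h to vehicle (DMSO), to dabrafenib (100 nM), which blocks mutant BRAF, together with trametinib (10 nM), which blocks MEK (MAPKi), to 1 µM entinostat, which blocks class I histone deacetylases, or to all 3 agents (combination), with 3 arrays per group. The 4 groups share 1 cell line in the same culture medium, RPMI with serum, and no untreated cells without DMSO were included. The titles describe the 3 arrays as biological replicates and the series design as technical triplicates, so each p-value covers only the spread between these arrays.

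Ephrins are membrane-bound ligands for the Eph receptors, the largest family of receptor tyrosine kinases, and signal on contact between neighbouring cells. Ephrin-A ligands such as ephrin-A5 are held in the membrane by a lipid anchor and bind mainly EphA receptors, whereas ephrin-B ligands such as ephrin-B2 span the membrane, bind mainly EphB receptors and EphA4, and carry a cytoplasmic tail that signals back into the ligand-bearing cell. Both kinds guide migrating neural crest cells, the embryonic source of melanocytes, and ephrin-B2 also marks arterial endothelium, where it pairs with EphB4.

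The arrays differed in overall level between the groups, which bears on every difference below, and an effect of the drugs on overall level cannot be told apart here from the scaling of the arrays, which is not stated. The median array intensity lay at 50.6 to 57.6 in vehicle, 37.5 to 40.8 in MAPKi, 48.3 to 51.6 in entinostat and 33.3 to 39.9 in the combination. The median log2 change over 14599 genes was -0.48 for MAPKi, -0.20 for entinostat and -0.72 for the combination, each against vehicle, -0.23 for the combination against MAPKi and -0.54 for the combination against entinostat. Each change is therefore given on the deposited scale, as a log2 difference with its limma standard error, and beside it after quantile normalization ("quantile"), which gives every array the same distribution and leaves medians between -0.04 and 0.00. Of the melanocyte and melanoma markers, SOX10 (9.96 log2 units in vehicle) and S100B (11.49) were brighter than 96.1% and 99.6% of genes in vehicle. MITF (6.09) and the pigmentation gene PMEL (6.07) were brighter than only 44.6% and 44.2% of genes. The pigmentation genes MLANA (4.27), TYR (3.81) and TYRP1 (3.48) were dimmer still, at 15.3%, 10.6% and 7.97%. The endothelial markers VWF (5.08), ESAM (5.53) and CLDN5 (6.27) were brighter than 27.3%, 34.6% and 47.7% of genes. The other 3 of the 6 listed endothelial genes were not analysed. None of the 3 measured passed with entinostat against vehicle (limma, 0 also at an unadjusted p under 0.05). Of all genes 10.4% passed as higher and 37.2% as lower there, and nothing is read from 0 of 3. The epithelial markers EPCAM (5.58), KRT8 (6.76), KRT18 (7.38) and KRT19 (5.14) and the haematopoietic marker CD14 (4.53) were also measured. In the same comparison 1 of the 7 measured melanocyte and melanoma markers passed as higher and 3 as lower. Of the 4 epithelial markers 1 passed as higher and 0 as lower.

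Both genes start in GC-rich sequence. The 250 bases before each RefSeq start (GRCh38.p14, minus strand, chr13:106535663-106535912 for EFNB2 and chr5:107670938-107671187 for EFNA5) are shown because the members' changes are changes in transcript level and these windows hold the sequence next to where RefSeq places the transcript's start. Capitals mark matches on either strand to GGGCGG (GC box), CCAAT and CACCTG (an E-box), motifs chosen after the sequences had been seen, and no marked match overlaps another.
EFNB2: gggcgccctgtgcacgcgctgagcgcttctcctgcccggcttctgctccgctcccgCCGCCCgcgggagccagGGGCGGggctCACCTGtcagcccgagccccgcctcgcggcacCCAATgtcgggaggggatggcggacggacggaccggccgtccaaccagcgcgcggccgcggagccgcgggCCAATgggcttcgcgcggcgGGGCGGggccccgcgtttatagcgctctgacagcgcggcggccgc
EFNA5: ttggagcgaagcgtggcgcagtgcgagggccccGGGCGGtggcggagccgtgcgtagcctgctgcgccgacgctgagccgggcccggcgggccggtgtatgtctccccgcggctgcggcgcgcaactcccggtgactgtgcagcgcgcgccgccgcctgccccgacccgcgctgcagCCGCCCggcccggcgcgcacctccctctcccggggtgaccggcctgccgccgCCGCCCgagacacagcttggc
GC content was 78.4% for EFNB2 and 79.6% for EFNA5, with 40 and 41 CpG dinucleotides. Of 35116 windows of this length, 94.8% had a lower GC content than EFNB2 and 96.3% a lower one than EFNA5. Each window held 3 GC boxes, which start at -194, -177 and -45 in EFNB2 and at -217, -73 and -21 in EFNA5, counted back from the base before the start. A GC box occurred in 42.6% of all windows. EFNB2 also held CCAAT at -135 and -65 (32% of windows hold one) and CACCTG at -167 (17.5% of windows), and EFNA5 had neither. The ETS core CCGGAA (14.5% of windows), the AP-1 site TGACTCA (4.2%) and the cyclic AMP response element TGACGTCA (1.65%) had no match on either strand in either window, which says only that these letters are not there.

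EFNB2 was lowest in vehicle on both scales, and highest with entinostat alone on the deposited scale but with the combination after quantile normalization (8.09, against 7.85 with entinostat). Its log2 intensity on the 3 vehicle arrays was 4.83, 4.46 and 4.93, and with entinostat alone it was 8.22, 8.07 and 7.90. The MAPKi arrays read 5.45, 5.88 and 5.42. The combination arrays read 7.43, 7.50 and 7.34. On the deposited scale the groups thus ran vehicle, MAPKi, combination, entinostat from low to high, and no 2 groups overlapped. The share of all genes whose groups do not overlap was not computed. Lack of overlap, here and below, is therefore a description of the arrays and not a trait particular to either gene. In linear intensity the group means were 27.0 ± 4.36 (SD, n = 3) in vehicle, 48.5 ± 8.89 with MAPKi, 268.4 ± 29.2 with entinostat and 171.8 ± 9.46 with the combination. The difference between entinostat and vehicle, by which the gene was chosen, was 9.99-fold (3.32 ± 0.14 on the log2 scale, quantile 3.28). On the vehicle arrays EFNB2 was brighter than only 18.3% to 25.6% of genes, so its fold changes against vehicle start from a dim level. MAPKi alone gave a level 1.79-fold above the same vehicle arrays (0.84 ± 0.14, quantile 1.18), while the median gene was at -0.48.

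**Figure D1:**
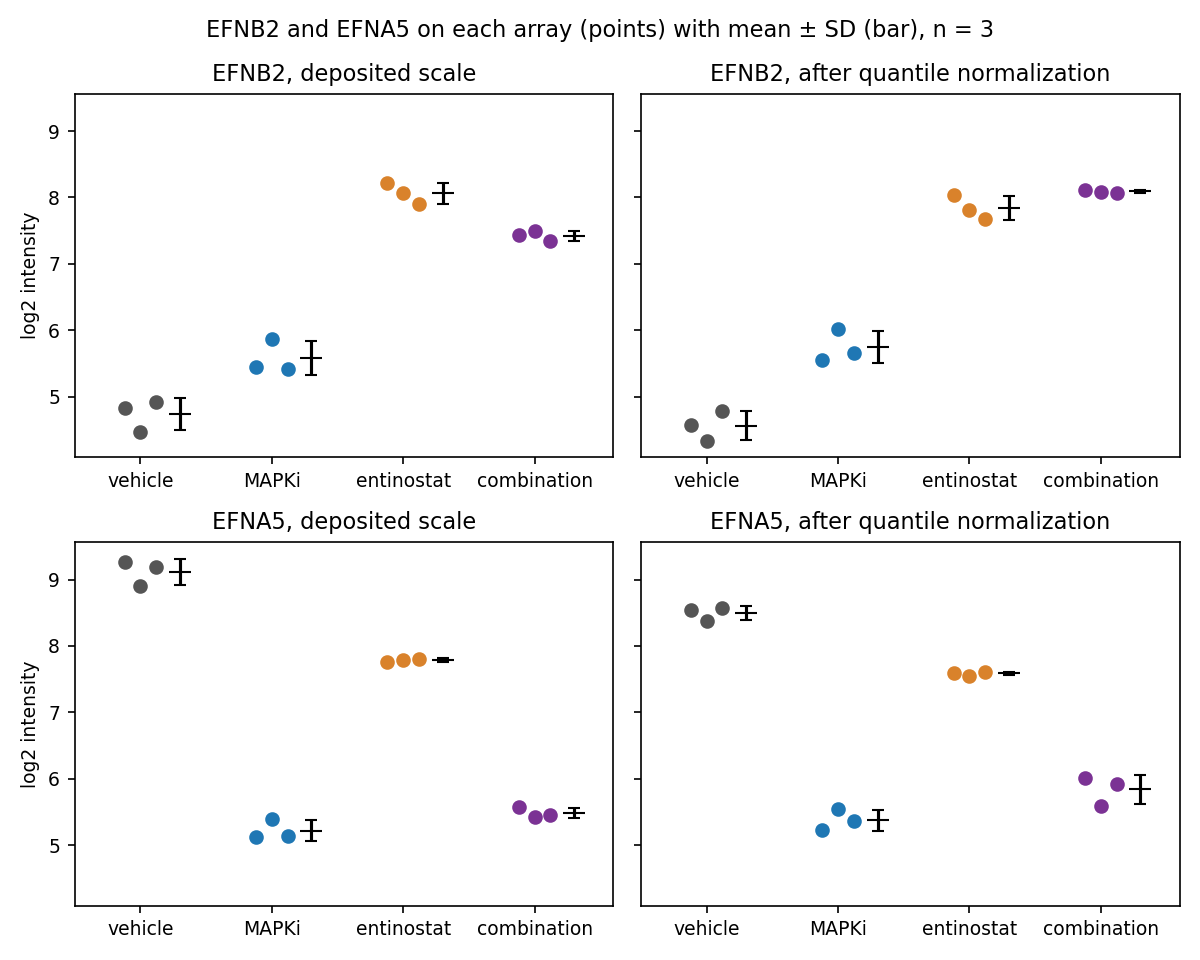
Log2 intensity of EFNB2 (top) and EFNA5 (bottom) on each of the 12 arrays by treatment, on the deposited scale (left) and after quantile normalization (right), with points for arrays and bars for mean ± SD (n = 3). EFNB2 lies between 7.34 and 8.22 on the 6 arrays with entinostat and EFNA5 between 5.13 and 5.57 on the 6 arrays with MAPK inhibitors on the deposited scale.

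Entinostat also raised EFNB2 in cells that received the MAPK inhibitors. The choice compared log2 values over all 4 groups, these included, and was made with all results known. The p-value is therefore not independent evidence. Combination arrays were 3.58-fold above MAPKi arrays (1.84 ± 0.14, adjusted p = 7.6e-08 in limma, quantile 2.35 with adjusted p = 7.3e-08). All 3 combination arrays were above all 3 MAPKi arrays. Of all genes, 8.68% passed as higher in this comparison, and 19.6% did after quantile normalization. The change was thus smaller than the 3.32 seen without MAPK inhibitors, and the difference between these changes was -1.48 ± 0.20 (quantile -0.94), not tested because it contains the contrast of choice.

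Adding the MAPK inhibitors to entinostat gave no direction for EFNB2 that held on both scales. On the deposited scale EFNB2 fell by 0.64 ± 0.14 from entinostat to the combination (adjusted p = 0.00092 in limma), without overlap. In the same comparison 72.6% of all genes passed as lower and the median gene fell by 0.54. After quantile normalization the change was 0.25 ± 0.14, which did not pass (adjusted p = 0.24, 95% interval -0.05 to 0.54), and after subtraction of array medians it was -0.17 (adjusted p = 0.34). The entinostat arrays on one side of this comparison were also used in choosing the gene as high. That choice favours a fall from them, so the p-value on the deposited scale does not support one.

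EFNA5 was highest in vehicle and lowest with MAPKi on both scales. Its log2 intensity was 9.27, 8.90 and 9.20 on the vehicle arrays and 5.13, 5.40 and 5.13 on the MAPKi arrays. Entinostat arrays read 7.76, 7.80 and 7.81. Combination arrays read 5.57, 5.43 and 5.46. The order from low to high was MAPKi, combination, entinostat, vehicle, with a narrow gap between the highest MAPKi array (5.40) and the lowest combination array (5.43). In linear intensity the means were 559.7 ± 73.4 (SD, n = 3) in vehicle, 37.4 ± 4.12 with MAPKi, 221.3 ± 3.93 with entinostat and 44.9 ± 2.41 with the combination. The difference by which the gene was chosen, MAPKi against vehicle, was 14.9-fold (-3.90 ± 0.12, quantile -3.11). Entinostat alone gave a level 2.51-fold below the same vehicle arrays (-1.33 ± 0.12, quantile -0.91), beyond the median gene at -0.20.

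The MAPK inhibitors also lowered EFNA5 in cells that received entinostat, again between groups compared in the choice, with the same limit on the p-value. The combination was 4.93-fold below entinostat alone (-2.30 ± 0.12, adjusted p = 7.7e-10 in limma, quantile -1.74 with adjusted p = 7.1e-07), and all 3 combination arrays lay below all 3 entinostat arrays. With 72.6% of all genes passing as lower on the deposited scale, the call itself is common there. After quantile normalization 12.5% of genes passed as lower and EFNA5 was among them. The median gene fell by 0.54 in the same comparison.

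Adding entinostat to the MAPK inhibitors left EFNA5 slightly higher, at the edge of the threshold. The change from MAPKi to the combination was 0.27 ± 0.12 (95% interval 0.02 to 0.51, adjusted p = 0.067 in limma), where the MAPKi arrays are also those used in choosing the gene. It passed after quantile normalization (0.46 ± 0.11, adjusted p = 0.005), after subtraction of array medians (0.40, adjusted p = 0.0093), and without MAPKi replicate 2 (0.36, adjusted p = 0.031). The choice of the gene as low on the MAPKi arrays favours a rise from them, so these p-values do not support one. Entinostat thus went with a lower EFNA5 level in the absence of MAPK inhibitors and a higher one in their presence, in every array of both pairs, and the difference between those changes was 1.60 ± 0.16 (quantile 1.37), not tested for the reason given for EFNB2.

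For both genes the combination lay nearer to vehicle than the sum of the single treatments. The changes of EFNB2 with each treatment alone summed to 4.16 on the log2 scale, against 2.68 with the combination (quantile 4.46 and 3.53). For EFNA5 they summed to -5.23, against -3.63 with the combination (quantile -4.02 and -2.65). These sums share the vehicle arrays and are given as a description. With MAPKi alone EFNA5 was already brighter than only 34.3% to 40.2% of genes on each array. Whether a lower limit of the signal bears on its sum was not tested. In the combination EFNB2 stayed 6.41-fold above vehicle and EFNA5 12.4-fold below it.

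**Figure D2:**
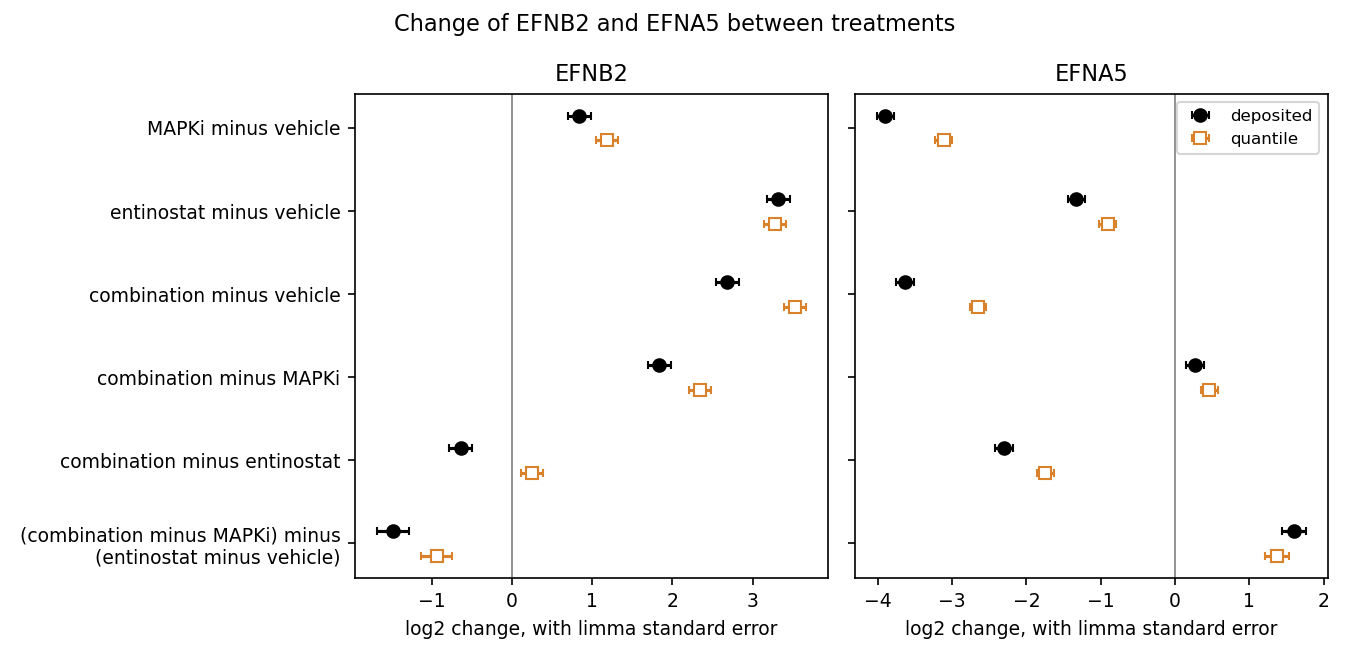
Log2 change of EFNB2 (left) and EFNA5 (right) in 5 comparisons and in the difference of differences, with bars for the limma standard error (3 arrays per group), on the deposited scale (filled circles) and after quantile normalization (open squares). The change of EFNB2 from entinostat to the combination lies at -0.64 on one scale and 0.25 on the other, whereas the change of EFNA5 in that comparison is -2.30 and -1.74.

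Among the other 6 ephrin ligand genes, EFNB1 had the largest change with MAPKi alone on the deposited scale (after quantile normalization EFNA1 did), and EFNA3 had the largest with entinostat alone on both. After MAPKi alone 4 of the 6 fell on the deposited scale, where 66.2% of all genes passed as lower. EFNB1, the X-linked ephrin-B gene, fell by 1.19 ± 0.10 (adjusted p = 8.1e-08 in limma, quantile -0.43) and passed on both scales. EFNA2 (-0.71 ± 0.16, quantile -0.19), EFNA4 (-0.70 ± 0.11, quantile 0.00) and EFNB3 (-0.65 ± 0.13, quantile -0.02) passed only before quantile normalization. EFNA1 (0.18 ± 0.12, quantile 0.91) and EFNA3 (-0.01 ± 0.11, quantile 0.57) passed as higher only after it. Ephrin-A1 is the ligand best known for binding EphA2.

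With entinostat alone EFNA3 and EFNA4 rose on both scales. EFNA3 rose 2.30-fold (1.20 ± 0.11, adjusted p = 4.8e-07 in limma, quantile 1.40) and EFNA4 rose 1.33-fold (0.41 ± 0.11, adjusted p = 0.0041, quantile 0.73), where 10.4% of all genes passed as higher. EFNA3 also rose when entinostat was added to the MAPK inhibitors (0.87 ± 0.11, adjusted p = 1.1e-05, quantile 1.37), as did EFNA4 (0.31 ± 0.11, adjusted p = 0.024, quantile 0.78). EFNA1 (-0.39 ± 0.12), EFNB1 (-0.47 ± 0.10) and EFNB3 (-0.41 ± 0.13) fell with entinostat on the deposited scale and did not pass after quantile normalization (-0.03, -0.07 and -0.13). EFNA2 did not pass on either scale (0.03 ± 0.16, quantile 0.21).

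Among the Eph receptors, 13 of the 14 listed genes were measured, all but EPHB2, and EPHA2 fell most after MAPKi. EPHA2 has long been described as a target of ERK signalling. Its log2 intensity went from 8.13 ± 0.16 in vehicle to 5.77 ± 0.17 with MAPKi (SD, n = 3), 5.12-fold lower (adjusted p = 4.4e-10 in limma, quantile -1.59). It also fell from entinostat to the combination (-2.06 ± 0.13, adjusted p = 6.3e-09, quantile -1.47). EPHA4, which binds ephrins of both classes, fell by 1.35 ± 0.12 after MAPKi (quantile -0.63), EPHB1 by 1.21 ± 0.13 (quantile -0.44) and EPHB3 by 1.05 ± 0.12 (quantile -0.25), each passing on both scales. EPHB4, the main vascular partner of ephrin-B2, fell by 0.96 ± 0.10 on the deposited scale only (quantile -0.16). EPHA1 (-0.66 ± 0.11) and EPHA6 (-0.50 ± 0.17) likewise passed only before quantile normalization (-0.23 and -0.32). The other 6 receptor genes did not pass on either scale, from EPHA8 (-0.39 ± 0.21) to EPHA7 (-0.09 ± 0.12).

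Entinostat alone raised 5 of the 13 receptor genes and lowered 2 on the deposited scale, where 10.4% of all genes passed as higher and 37.2% as lower. EPHA3, a high-affinity receptor for ephrin-A5, rose 2.26-fold (1.18 ± 0.12, adjusted p = 6.2e-07 in limma, quantile 1.23) and rose also when entinostat was added to the MAPK inhibitors (0.78 ± 0.12, adjusted p = 3.3e-05, quantile 1.08). EPHA7 (0.81 ± 0.12, quantile 0.80), EPHB1 (0.65 ± 0.13, quantile 1.02), EPHB6, whose kinase domain is inactive (0.61 ± 0.15, quantile 0.76), and EPHA5 (0.34 ± 0.13, quantile 0.35) rose on both scales. EPHB4 fell by 0.67 ± 0.10 (adjusted p = 3.4e-05, quantile -0.30) and EPHA2 by 0.46 ± 0.13, the latter without passing after quantile normalization (-0.04). EPHA4 did not pass with entinostat alone (-0.08 ± 0.12) but did after quantile normalization (0.27). EPHB4 fell further when entinostat was added to the MAPK inhibitors (-0.75 ± 0.10, adjusted p = 1.1e-05, quantile -0.28).

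**Figure D3:**
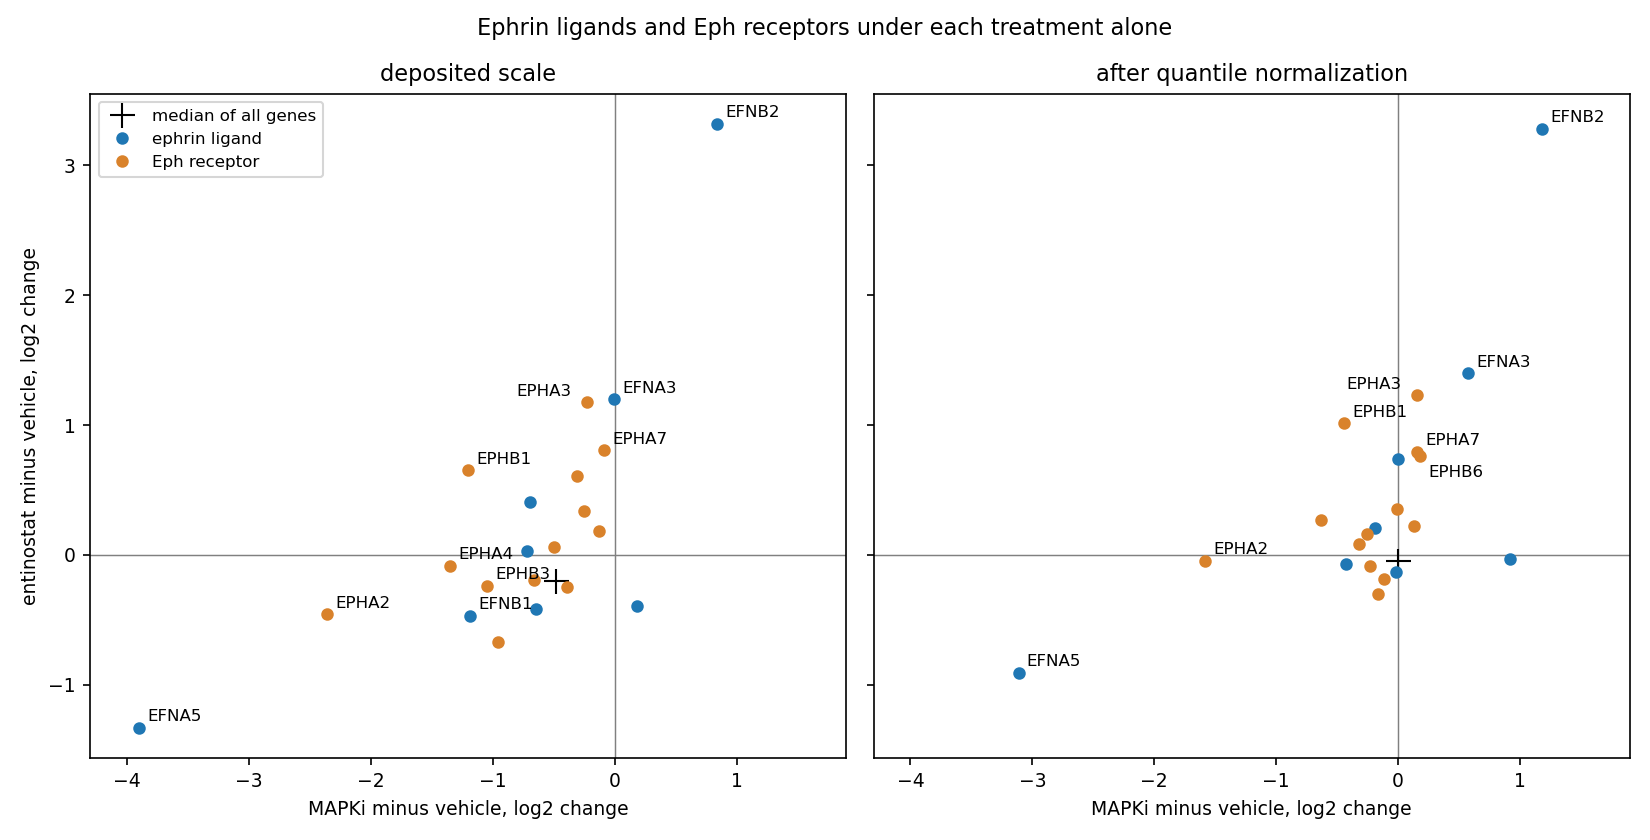
Log2 change with MAPKi alone (horizontal) and with entinostat alone (vertical), each against the same vehicle arrays, for 8 ephrin ligand genes (blue) and 13 Eph receptor genes (orange), on the deposited scale (left) and after quantile normalization (right), with a cross at the median of all genes. EFNB2 (0.84 and 3.32), chosen by its vertical value, and EFNA5 (-3.90 and -1.33), chosen by its horizontal value, lie at the ends of the plot, and EPHA2 (-2.36) is the next lowest with MAPKi.

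Counted over the 19 measured ephrin and Eph genes other than EFNB2 and EFNA5, MAPKi lowered 11 and raised 0 (limma, 0 also at an unadjusted p under 0.05), against 66.2% lower and 2.97% higher among all genes. After quantile normalization 5 were lower and 2 higher, against 14.7% and 14.2%. Without vehicle replicate 1, 1 gene passed as higher on the deposited scale. Entinostat raised 7 and lowered 5, against 10.4% and 37.2% of all genes, and the lowered count was 3 without vehicle replicate 1 or without entinostat replicate 1. After quantile normalization 8 were higher and 1 lower, against 18.2% and 21.4%. The median change over the 19 genes was -0.65 with MAPKi and 0.03 with entinostat (quantile -0.12 and 0.21), beside -0.48 and -0.20 for all genes.

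Of the same 19 genes, entinostat added to the MAPK inhibitors raised 7 and lowered 2 (quantile 12 and 1), against 8.68% and 40.6% of all genes (quantile 19.6% and 24.0%). The raised count was 4 without MAPKi replicate 1 and without combination replicate 1 or 2. The lowered count was 1 without MAPKi replicate 1 and without combination replicate 1 or 3. The MAPK inhibitors added to entinostat lowered 15 and raised 0 (limma, 0 also at an unadjusted p under 0.05), against 72.6% and 0.644% of all genes. After quantile normalization EPHA2 was the 1 gene lower and EFNA1 (1.06) and EFNA3 (0.54) were higher, against 12.5% and 10.5%. The combination against vehicle raised 2, EFNA3 and EPHA3, and lowered 10, against 4.38% and 74.3% (quantile 10 and 2, against 21.0% and 25.6%). The difference of differences passed for 0 of the 19 (limma, 3 at an unadjusted p under 0.05), against 3.16% higher and 4.84% lower among all genes. After quantile normalization it passed for EPHA4 (0.62) and EPHB3 (0.42), against 6.17% higher and 6.36% lower. On the deposited scale 1 gene passed as higher without combination replicate 1, and 1 as lower without MAPKi replicate 2.

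Genes that act with the receptors and ligands inside the cell mostly fell after MAPKi on the deposited scale. Of 14 measured partners on the receptor side 13 fell and 1 rose (median -0.64), where 66.2% of all genes passed as lower and 2.97% as higher, but after quantile normalization 3 fell and 5 rose (14.7% and 14.2% of all genes), so the direction of the list depended on the scale. NCK2, an adaptor that binds Eph receptors and ephrin-B tails, fell by 1.65 ± 0.11 (quantile -0.91). NGEF, which encodes ephexin-1, fell by 1.10 ± 0.15 (quantile -0.61). With entinostat 2 rose and 7 fell, where 10.4% and 37.2% of all genes did (quantile 5 and 6, against 18.2% and 21.4%). The phosphatase gene INPPL1 fell by 1.16 ± 0.11 (quantile -0.73), NCK2 fell by 1.01 ± 0.11 (quantile -0.70) and VAV3 rose by 0.93 ± 0.13 (quantile 0.92).

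On the ligand side 8 partner genes were measured, and 6 fell after MAPKi, a share near the 66.2% of all genes (quantile 4 lower and 1 higher, against 14.7% and 14.2%). SDCBP, which encodes the PDZ adaptor syntenin that binds ephrin-B tails, fell by 1.12 ± 0.12 (quantile -0.53) and rose with entinostat by 0.45 ± 0.12 (quantile 0.69). SRC, a kinase that phosphorylates ephrin-B tails, fell by 1.05 ± 0.15 after MAPKi (quantile -0.38) and by 0.46 ± 0.15 with entinostat (quantile -0.12, not passing). Its relative YES1 fell by 1.00 ± 0.11 after MAPKi without passing after quantile normalization (-0.19), and the PDZ protein gene PICK1 fell by 0.61 ± 0.12 with entinostat (quantile -0.39). NGFR, a co-receptor through which ephrin-A ligands signal, fell by 1.98 ± 0.10 after MAPKi (quantile -1.18) and rose by 0.79 ± 0.10 with entinostat (quantile 1.22). RET, another such co-receptor, fell by 0.49 ± 0.11 after MAPKi on the deposited scale only (quantile -0.11). The proteases ADAM10, which sheds ephrins, and ADAM17 fell after MAPKi by 0.90 ± 0.10 and 0.66 ± 0.10, neither passing after quantile normalization (-0.15 and 0.15).

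Genes of the Notch pathway, which induces EFNB2 in arterial endothelium, moved in both directions with entinostat. Of 15 measured, 4 rose and 5 fell, where 10.4% and 37.2% of all genes did (quantile 7 and 3, against 18.2% and 21.4%). JAG1, a Notch ligand, rose 4.04-fold (2.01 ± 0.13, adjusted p = 1.3e-08 in limma, quantile 2.43). The Notch target HEY2 rose by 0.85 ± 0.11 (quantile 1.23), while RBPJ, the DNA-binding factor of the pathway, fell by 0.72 ± 0.10 (quantile -0.31). After MAPKi 10 fell and 2 rose (quantile 4 and 4), where 66.2% and 2.97% of all genes did (quantile 14.7% and 14.2%), with HEY2 at -1.54 ± 0.11 (quantile -0.75), HEY1 at -1.05 ± 0.12 (quantile -0.53) and JAG1 at -1.04 ± 0.13 (quantile -0.26, not passing). EFNB2 was above vehicle with MAPKi on both scales. These 3 genes, picked from the 15 for large changes, were below it, and a link to EFNB2 was not tested.

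Of the other axon guidance genes 23 of 49 listed were measured and the rest were not analysed here. Entinostat raised 9 and lowered 6 (quantile 14 and 6), where 10.4% and 37.2% of all genes passed (quantile 18.2% and 21.4%), with the guidance ligand gene SLIT2 (1.95 ± 0.13, quantile 2.02) and the netrin receptor gene UNC5D (1.53 ± 0.14, quantile 1.57) higher and the plexin gene PLXNB3 lower (-1.39 ± 0.13, quantile -0.95). MAPKi lowered 18 and raised 2 (quantile 8 and 6), where 66.2% and 2.97% of all genes passed (quantile 14.7% and 14.2%). The semaphorin co-receptor genes PLXNA2 (-2.96 ± 0.10, quantile -2.19) and PLXNA1 (-2.07 ± 0.14, quantile -1.27) and the netrin gene NTN1 (-1.51 ± 0.13, quantile -0.79) fell most. Of 9 measured genes of MAPK pathway output, EPHA2 and EPHA4 among them, all 9 fell after MAPKi on both scales (median -4.52, quantile -3.80), where 66.2% of all genes passed as lower (quantile 14.7%). They included the feedback inhibitors SPRY4 (-6.08 ± 0.12, quantile -5.47) and SPRY2 (-4.87 ± 0.12, quantile -4.13) and the ETS factor gene ETV5 (-4.73 ± 0.14, quantile -3.99). With entinostat alone 7 of the 9 fell, where 37.2% of all genes did (quantile 4 lower and 1 higher, against 21.4% and 18.2%), led by SPRY2 (-1.33 ± 0.12, quantile -0.95), SPRY4 (-1.33 ± 0.12, quantile -1.09) and ETV4 (-1.01 ± 0.12, quantile -0.65). EFNA5 was lower in both treatments as well, at -3.90, the value it was chosen by, and -1.33. Of all genes 66.2% and 37.2% passed as lower there. Whether EFNA5 is an output of the pathway was not tested.

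The genes whose pattern over the 12 arrays was most like each member's were found by the root mean square difference of log2 values, after each gene's own mean over the arrays was subtracted. For EFNB2 they were ENPP5, an ectonucleotide pyrophosphatase family gene (0.20 log2 units), CALB2, which encodes the calcium-binding protein calretinin (0.22), the endoplasmic reticulum chaperone gene CLGN (0.34), the kinase gene PAK5 (0.42) and SUSD4 (0.42). ENPP5 went from 4.86 ± 0.11 in vehicle (log2, SD, n = 3) to 5.75 ± 0.07 with MAPKi, 8.20 ± 0.07 with entinostat and 7.45 ± 0.19 with the combination. All 5 were above vehicle with MAPKi as well as with entinostat, by 0.34 (PAK5) to 1.10 (SUSD4) and by 2.46 (PAK5) to 3.34 (ENPP5). Their choice by likeness to EFNB2 over these same arrays favours these directions. Of these 5 genes 4 were also among the 5 nearest after quantile normalization.

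For EFNA5 the nearest were CEMIP, a hyaluronan-binding protein gene (0.17 log2 units), the replication factor gene MCM10 (0.21), DTL, a substrate receptor of a ubiquitin ligase (0.30), the exonuclease gene EXO1 (0.37) and TMEM158 (0.39), of which 3 remained among the 5 nearest after quantile normalization. CEMIP went from 11.66 ± 0.08 in vehicle to 7.63 ± 0.13 with MAPKi, 10.55 ± 0.12 with entinostat and 8.26 ± 0.16 with the combination. MCM10 went from 9.03 ± 0.16 to 5.53 ± 0.13, 7.59 ± 0.04 and 5.35 ± 0.12. Against vehicle the 5 genes ranged from -3.06 (EXO1) to -4.03 (CEMIP) with MAPKi and from -0.60 (EXO1) to -1.46 (DTL) with entinostat. Likeness here is a description over arrays that share the 4 treatments, and directions shared with EFNA5 are likewise favoured by the choice.

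**Figure D4:**
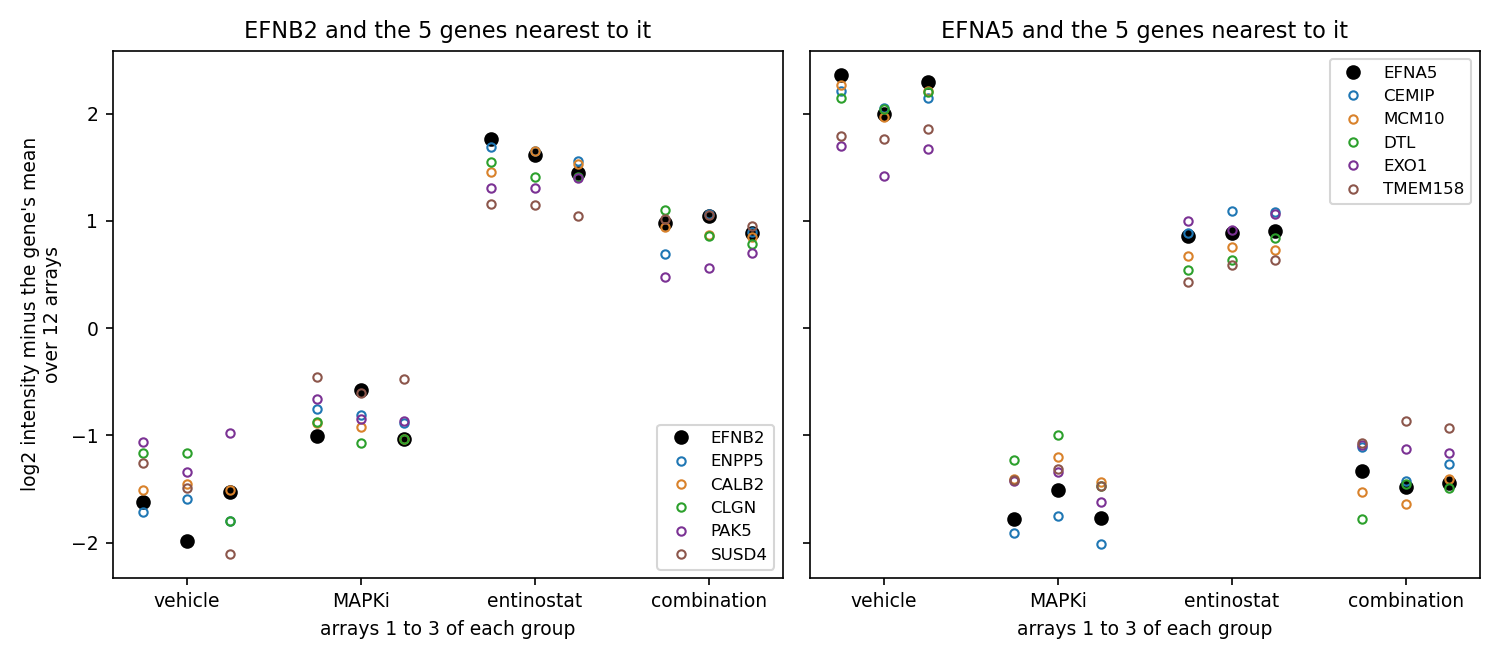
Log2 intensity minus each gene's mean over the 12 arrays, for EFNB2 (left) and EFNA5 (right) as filled black points and the 5 genes nearest to each as open points, by treatment, on the deposited scale. On the left ENPP5 and CALB2 lie closest to EFNB2, and on the right CEMIP and MCM10 lie closest to EFNA5.

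The measured genes next to EFNB2 did not share its higher level with entinostat, and those next to EFNA5 did not share its lower level with MAPKi on both scales. In RefSeq order on chromosome 13, the nearest measured genes on either side of EFNB2 are LINC00460 and ARGLU1, which encodes an arginine- and glutamate-rich RNA-binding protein. With entinostat ARGLU1 fell by 0.74 ± 0.12 (adjusted p = 0.00011 in limma, quantile -0.33), while LINC00460 (0.08 ± 0.13, quantile 0.12), DAOA (-0.25 ± 0.15, quantile -0.28) and ARGLU1-DT (-0.26 ± 0.19, quantile -0.23) did not pass on either scale. On chromosome 5 those of EFNA5 are NUDT12, a NADH pyrophosphatase gene, and FBXL17, an F-box protein gene. After MAPKi FBXL17 fell by 0.41 ± 0.11 but was 0.40 higher after quantile normalization, and NUDT12 was at -0.26 ± 0.11 (adjusted p = 0.044, quantile 0.32, not passing). MACIR (0.20 ± 0.12, quantile 0.98) and LINC01023 (-0.09 ± 0.14, quantile 0.56) passed only after quantile normalization, both as higher. With MAPKi the lowest of these 4 changes was -0.41 (FBXL17), beside -3.90 for EFNA5. With entinostat FBXL17 fell on both scales (-0.96 ± 0.11, adjusted p = 1.8e-06 in limma, quantile -0.54), the same direction as EFNA5 (-1.33, quantile -0.91), and NUDT12 fell on the deposited scale only (-0.29 ± 0.11, quantile -0.05).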

How the data were processed

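The deposited table gives 1 linear probe set intensity per row and array, and the submitters' processing notes name RMA and Transcriptome Analysis Console. The sources used here do not give versions, genome build, scaling between arrays or any use of the ERCC spike-in that was added before extraction. Log2 was taken of each value. A platform table named 14783 of 29592 rows with 1 symbol, updated through RefSeq to 14599 genes, and the brightest row was used for the 169 genes with several. Groups were compared with limma (version 3.58.1, under R 4.3.3) by moderated linear models of group means on all 12 arrays (8 residual and 7.68 prior degrees of freedom), with Benjamini-Hochberg adjustment over all genes. Genes passed at an adjusted p under 0.05. Lists are described by counts and medians, without set tests. Named genes were the members, all ephrin and Eph genes, up to 3 passing, non-overlapping genes with the largest change per other list and comparison, the nearest genes by pattern and 2 neighbours per side. One gene that this rule names is not reported here. Members and lists were chosen with earlier results of these data known. The model was tested on simulated data. Upstream sequences are RefSeq's on GRCh38.p14, and both members matched. The number of arrays limits precision.

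Arrays carry numbers 1 to 3 within a group. The correlation across genes of deviations from group means was -0.11 to 0.12 for the 18 pairs of the same number, so the arrays were not treated as paired. Alternatives were quantile normalization, subtraction of array medians, leaving out the dimmest 40% of genes, trend and robust variance, the mean of a gene's rows, only the arrays compared, the replicate number as a block and leaving out each array. Figures were drawn with matplotlib 3.10.9.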

Additional observations from a re-analysis of the deposited data

Results flagged for a closer look

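On the deposited scale the effect of a drug on each member had opposite signs without and with the other drug, in every array. After quantile normalization this held for EFNA5 but not for EFNB2. Neither difference was tested, since each contains the contrast by which the gene was chosen. For EFNB2 the MAPKi change was 0.84 without entinostat and -0.64 with it, a difference of -1.48 ± 0.20 (quantile -0.94), and the second change is 0.25 after quantile normalization. For EFNA5 the entinostat change was -1.33 without MAPK inhibitors and 0.27 with them, a difference of 1.60 ± 0.16 (quantile 1.37). The change of 0.27 did not pass on the deposited scale (adjusted p = 0.067 in limma), and the choice of the gene favours such a rise.

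The genes named from the other lists were picked for large changes with MAPKi or entinostat against vehicle, and the difference of the entinostat change with and without MAPK inhibitors contains both of those contrasts, so it is described for them without a p-value. Of 27 such genes 11 lay past the threshold, where 3.16% of all genes did as higher and 4.84% as lower, and nothing is read from that count. It was positive for the MAPK output genes SPRY4 (1.30 ± 0.17), SPRY2 (1.61 ± 0.17) and ETV4 (1.44 ± 0.17), for the ephrin-A co-receptor NGFR (0.69 ± 0.15) and for PLXNA2 (1.39 ± 0.15). It was negative for SLIT2 (-1.33 ± 0.19), UNC5D (-0.82 ± 0.19), PLXNB3 (-0.76 ± 0.19), ADAM17 (-0.59 ± 0.14), YES1 (-0.56 ± 0.16) and RBPJ (-0.54 ± 0.15). Each of the 11 had the same sign after quantile normalization.

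Of the 8 chromosome neighbours, which were picked by position, the difference passed for 1, MACIR (-0.72 ± 0.17, adjusted p = 0.013 in limma, quantile -0.64 with adjusted p = 0.0052). MACIR lies 2 measured genes before EFNA5. Of all genes 3.16% passed as higher and 4.84% as lower (quantile 6.17% and 6.36%), and nothing is read from 1 of 8.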

How the results depend on the processing

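The rise of EFNB2 from MAPKi to the combination and the fall of EFNA5 from entinostat to the combination kept direction and call under every alternative run. All alternatives draw on the arrays compared in choosing the genes, so they show dependence on processing and add no independent evidence. After quantile normalization the EFNB2 changes were 1.18 (MAPKi against vehicle), 3.53 (combination against vehicle), 0.25 (combination against entinostat, reversed) and -0.94 (difference of differences), and after array-median subtraction the first 3 were 1.28, 3.25 and -0.17. For EFNA5 quantile normalization gave -3.11, -0.91 and -2.65 for MAPKi, entinostat and the combination against vehicle, 0.46 for the combination against MAPKi and 1.37 for the difference of differences, and array-median subtraction gave -3.46, -3.06 (combination) and 0.40 (combination against MAPKi). The last also passed at 0.27 without the dimmest 40% of genes (adjusted p = 0.033) and with trend and robust variance (adjusted p = 0.05, just under the threshold before rounding), and ranged from 0.22 to 0.36 over arrays left out. For the other 19 ephrin and Eph genes the counts, higher then lower, after quantile normalization and after array-median subtraction were 2 and 5, then 4 and 6 (MAPKi), 8 and 1, then 8 and 5 (entinostat), 10 and 2, then 8 and 5 (combination), 12 and 1, then 10 and 1 (combination against MAPKi), 2 and 1, then 1 and 7 (combination against entinostat), and 2 and 0, then 1 and 0 (difference of differences, also 1 higher without dim genes and with trend and robust variance). Over arrays left out, counts ran 0 to 1 higher (MAPKi), 3 to 6 lower (entinostat), 4 to 7 higher and 1 to 2 lower (combination against MAPKi) and 0 to 1 each way (difference of differences). Shares of all genes were computed only on the deposited and quantile scales, where they are given above. The counts under the other alternatives have no such share beside them, and nothing is read from their size. Sign changes with quantile normalization in which the value passed on at least 1 of the scales were, for MAPKi, EFNA3 (0.57), EFNA4 (0.0019), ADAM17 (0.15), NUDT12 (0.32), FBXL17 (0.40) and LINC01023 (0.56), for entinostat EPHA4 (0.27), for the combination against MAPKi EFNA1 (0.12) and EFNB1 (0.23), and for the combination against entinostat EFNA2 (0.22), EFNA3 (0.54), EFNA4 (0.0496), EFNB3 (0.30), EPHA3 (0.0097) and EPHB3 (0.17). For the combination against vehicle, EFNA2 (-0.41 to 0.42), EFNA4 (-0.39 to 0.78), EPHB1 (-0.43 to 0.84) and EPHB3 (-0.96 to 0.33) passed in opposite directions on the deposited and quantile scales. With array-median subtraction the sign changes were EFNA3 (0.43), EPHA7 (0.35), EPHA10 (0.31), NUDT12 (0.17), FBXL17 (0.0284) and LINC01023 (0.34) for MAPKi and EFNA2 (0.03), EFNA3 (0.13), EFNB3 (0.0697) and EPHA10 (0.0180) for the combination against entinostat. The cause was not tested.

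With the replicate number as a block, EFNB2 was 1.84 higher in the combination than in MAPKi (adjusted p = 2.6e-07 in limma) and EFNA5 changed by -2.30 from entinostat to the combination (adjusted p = 4.7e-09), and no call of either gene changed. These p-values are likewise not independent of the choice of the genes. The block ended 3 calls of single genes, EPHA7 for the combination against MAPKi and NUDT12 for MAPKi and for entinostat. Of the 12 arrays, 7 correlated best with an array of their own number in another group.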
